A study of Sus scrofa with 16 samples.

Results

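The genes described here build or anchor the lining of the gut: LGALS4, VIL1, EPCAM, CDH1, CDH17, KRT8, KRT18, KRT19 and KRT20, which code for a galectin, a microvillus protein, adhesion molecules and keratins. A probe counted as a member when its spot was not a control and the array's annotation gave one of these 9 symbols as the gene name or in brackets in the description. This rule found 27 of the 43603 probes on the array, for 6 of the 9 genes. LGALS4 had 2 probes, VIL1 had 1, EPCAM had 18, CDH1 had 2, KRT8 had 3 and KRT18 had 1. CDH17, KRT19 and KRT20 had 0 probes by the rule. A KRT20 probe that the file names only by a gene number is given beside the members and counted nowhere among them.

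In a simple columnar epithelium, keratins 8, 18, 19 and 20 form the intermediate filaments of the cell body, and villin bundles the actin cores of the microvilli. E-cadherin, coded by CDH1, joins neighbouring cells at adherens junctions through catenins, while EPCAM and the cadherin coded by CDH17 add further contacts between cells. Hepatocytes build their filaments from keratins 8 and 18 and also carry E-cadherin, whereas EPCAM in the liver marks the cells of the bile ducts.

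Each array measured RNA of 1 pig tissue sample in 1 colour, and there were 16 arrays in 4 groups of 4. The groups were colonic mucosa on the corn starch diet (CS diet), colonic mucosa on the raw potato starch diet (RPS diet), liver on the CS diet and liver on the RPS diet. All pigs were Duroc × Landrace × Large White barrows. In the RPS diet purified RPS took the place of purified corn starch, and the arrays covered both gut and liver. The diets held 230 g/kg of purified starch from 70 days of age and 280 g/kg from 120 days of age, and tissue was taken on day 100 of the trial, at 170 days of age.

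Values are log2 signals of the scanner's processed intensity, brought to a common distribution by quantile normalization, among the 8 arrays of a tissue for the diet comparisons and among all 16 for colon against liver. Between 61.1% and 72.2% of probes were well above background per array, and 0 spots were saturated on each array. Before normalization the median signal was 56.34 to 70.8 on the Colon_CS arrays and 34.15 to 42.52 on the Colon_RPS arrays. It was 30.6 to 37.88 over the liver arrays. All 27 member probes were well above background on all 8 colon arrays. In the liver 25 of them were so on all 8 arrays, EPCAM probe A_72_P761949 was so on 7 of 8, and the second LGALS4 probe on 1 of 8. Each slide held the 4 arrays of 1 diet in 1 tissue, so within a tissue an effect of diet and one of the slide cannot be told apart. The same holds for a difference in the effect of diet between the tissues. A gene is read at its brightest probe unless another is named.

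The tissue labels were checked on marker lists. Of 8 hepatocyte markers on the array, 8 were lower in colon than in liver (limma adjusted p under 0.05), and TTR and CYP2E1 were well above background on 0 of 8 colon arrays. Of 8 markers of absorptive colonocytes, 7 were higher in colon, as were 3 of 3 goblet cell markers, with FABP1, the fatty acid carrier that both tissues make, as the exception (0.24 on the log2 scale, limma adjusted p = 0.518).

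Within colon, 2 of the 8 arrays lay lowest for every member: Colon_CS 3 and Colon_RPS 2. They were the 2 lowest arrays at 27 of 27 member probes, against 16.3% of all 43603 probes with the same 2 arrays lowest. These 2 arrays also carried the 2 highest signals of MS4A1, which codes for the B cell surface protein CD20. As there was 1 such array per diet, each result in colon is given with this in view. In bulk tissue, fewer epithelial cells and less RNA per epithelial cell cannot be told apart.

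The first question was whether the RPS diet altered these genes in colonic mucosa. Of the 27 member probes, 0 had both a limma p under 0.05 before adjustment and a fold above 1.5, against 2.94% of all probes. At an unadjusted p under 0.05 alone the count of members was again 0, while 2362 of all 43603 probes had such a p, and after Benjamini-Hochberg adjustment 0% of all probes and 0 members passed. The median log2 difference, RPS minus CS, was 0.24 over the members, most of them EPCAM probes, and 0.01 over all probes. Over the members it turned to -0.23 without Colon_CS 3 and to -0.27 with MS4A1 in the fit. It was 0.61 without Colon_RPS 2, 0.51 without Colon_CS 1, 0.42 without Colon_CS 2, 0.10 without Colon_RPS 3 and 0.07 without Colon_RPS 1. Without both Colon_CS 3 and Colon_RPS 2 it was 0.14, and under scaling to the 75th percentile it was 0.37.

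Galectin-4, coded by LGALS4, is a sugar-binding lectin that helps carry glycoproteins to the brush border. LGALS4 had log2 signals of 18.17, 18.07, 16.65 and 18.04 on the CS diet and 18.23, 17.12, 17.93 and 18.33 on the RPS diet. The diets overlapped, and in each the 1 low array was one of the 2 named above. The difference was 0.17 (95% confidence interval -0.81 to 1.15, n = 4 per group, limma adjusted p = 0.993), and the second LGALS4 probe gave 0.16.

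Villin, coded by VIL1, had log2 signals of 12.05, 11.87, 9.34 and 11.38 on the CS diet and 11.87, 9.94, 11.78 and 11.16 on the RPS diet. Its group means of 11.16 ± 1.25 and 11.18 ± 0.89 (SD, n = 4) were nearly level, and the 2 low arrays made its spread the widest of the 6 genes. The interval of the difference, -1.62 to 1.66 around 0.02, still holds changes of more than 2-fold in either direction (limma adjusted p = 1).

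The adhesion genes gave the same picture. EPCAM had log2 signals of 16.15, 15.91, 13.94 and 15.54 on the CS diet and 16.21, 14.58, 15.95 and 15.75 on the RPS diet. CDH1 had 12.82, 12.80, 11.07 and 12.41 on the CS diet and 12.76, 10.94, 12.41 and 12.74 on the RPS diet. For both genes the diets overlapped, with Colon_CS 3 and Colon_RPS 2 far below the other 6 arrays. EPCAM differed by 0.24 (-1.08 to 1.55, limma adjusted p = 0.993), and its 18 probes ranged from 0.09 to 0.51. CDH1 differed by -0.06 (-1.34 to 1.22, limma adjusted p = 0.999) and its second probe by 0.53, so the sign of CDH1 depended on the probe.

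Of the keratins, KRT8 had log2 signals of 18.18, 18.07, 16.47 and 17.87 on the CS diet and 18.11, 16.98, 17.78 and 18.29 on the RPS diet. KRT18, the partner with which KRT8 pairs into filaments, had 13.88, 13.81, 12.84 and 13.38 on the CS diet and 14.09, 13.34, 14.01 and 14.92 on the RPS diet. KRT8 overlapped between diets, whereas 3 of the 4 KRT18 values on the RPS diet lay above every value on the CS diet, led by Colon_RPS 4. KRT8 differed by 0.14 (-0.92 to 1.21, limma adjusted p = 0.995), with 0.11 and 0.13 at its other probes. KRT18 differed by 0.61, a fold of 1.53 (-0.26 to 1.48, limma adjusted p = 0.982, exact two-sided permutation p = 0.171). Without Colon_RPS 2 the KRT18 difference was 0.86 with an unadjusted limma p of 0.0435, which put it past both thresholds.

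The KRT20 probe outside the rule had log2 signals of 15.00, 15.07, 13.20 and 15.00 on the CS diet and 15.34, 13.77, 15.00 and 14.90 on the RPS diet. KRT20, the keratin of mature surface cells, was thus low on the same 2 arrays and overlapped between diets (difference 0.19, limma adjusted p = 0.994). Leaving out both low arrays kept 0 member probes past the thresholds and set VIL1 at -0.17. With the MS4A1 signal added to the diet fit, LGALS4 stood at -0.20, VIL1 at -0.59, EPCAM at -0.27 and KRT8 at -0.26, each with its sign turned. CDH1 stood at -0.58 in that fit, at the edge of an unadjusted limma p of 0.05 but not past it, and KRT18 at 0.31, with their signs kept.

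**Figure D1:**
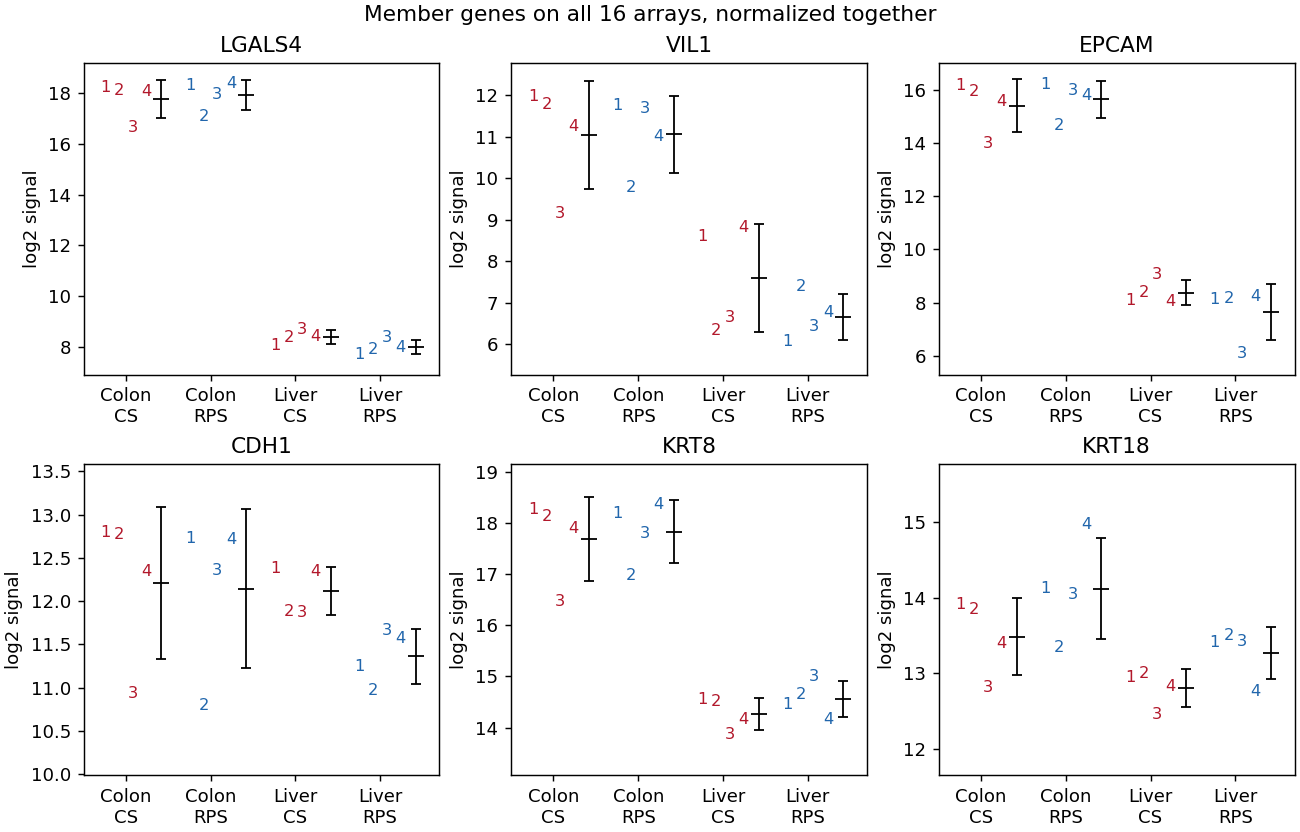
Log2 signal of the 6 member genes on all 16 arrays, normalized together, by tissue and diet; each digit is the replicate, and the black mark with its bar is the mean and SD of 4 arrays. Colon replicate 3 on the CS diet and replicate 2 on the RPS diet lie lowest in colon for each gene, and CDH1 and KRT18 overlap between tissues.

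Genes that work beside the members gave 0 calls in either direction for diet in colon. This held for 4 measured brush border genes, 5 adherens junction partners, 4 galectins, 3 EPCAM partners, 4 other keratins and intermediate filament genes and 1 plakin gene. Markers of absorptive colonocytes (8), goblet cells (3) and enteroendocrine cells (6) also gave 0 calls. The called genes were 1 of 8 T cell, 2 of 5 macrophage and 1 of 4 fibroblast genes, against 2.94% of all probes. At that share, 0 calls in lists this small say little. After adjustment 0 of all probes passed. The called genes were all lower on the RPS diet. CD4 differed by -0.99, the macrophage complement genes C1QB and C1QA by -1.27 and -0.88, and the collagen gene COL1A2 by -0.72. Their unadjusted limma p were 0.0129, 0.0053, 0.0212 and 0.0173. Of 11 other fits, 3 with another scaling, background correction or the authors' table and 8 with 1 array left out, C1QB passed in 11 and the other 3 genes in 10 each. CD4 was lost with normexp background correction (-0.50), C1QA without Colon_CS 2 (-0.78) and COL1A2 without Colon_RPS 4 (-0.53). Neutrophil (4), smooth muscle (4), endothelial (4) and enteric neuron and glia (4) lists gave 0 calls, as did the 8 hepatocyte genes.

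The second question set each member array by array against MS4A1 in colon. MS4A1 had log2 signals of 7.68, 10.37, 12.72 and 10.33 on the CS diet and 6.50, 12.57, 8.26 and 7.37 on the RPS diet. Its spread ran over more than 6 log2 units and the diets overlapped (difference -1.60, 95% confidence interval -5.20 to 2.01). Where MS4A1 was highest, all members were lowest: 25 of 27 member probes, for 5 of 6 genes, had a falling slope on MS4A1 (limma adjusted p under 0.05), against 5.94% of all probes. Of the 27, 0 rose with MS4A1, against 7.24% of all probes, and at an unadjusted p under 0.05 the falling count was 27, against 15.3% of all probes. The median slope was -0.31 log2 units per log2 unit of MS4A1 over the members and -0.00 over all probes. As 18 of the 27 are EPCAM probes, the counts and the median mainly reflect EPCAM.

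LGALS4 fell by 0.22 log2 units per log2 unit of MS4A1 (SE 0.05, limma adjusted p = 0.0345). EPCAM had a slope of -0.30 (SE 0.06, limma adjusted p = 0.0275), and its 18 probes ranged from -0.34 to -0.30. CDH1 had -0.28 (SE 0.07, limma adjusted p = 0.0368). KRT8 had a slope of -0.23 (SE 0.06, limma adjusted p = 0.0368) and KRT18 of -0.21 (SE 0.06, limma adjusted p = 0.0475). VIL1 had the steepest slope of the 6 genes, -0.34, and the widest error (SE 0.09), and missed the threshold (limma adjusted p = 0.0557), as did KRT8 at probe A_72_P632350 (limma adjusted p = 0.056). Both passed under scaling to the 75th percentile, with normexp background correction and with dim probes filtered out, where 27 of 27 members fell. The 95% confidence intervals of the slopes of all 6 genes lay below 0.

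Over the 8 colon arrays, 7 such relations were computed, for the 6 genes and KRT20, each with an exact two-sided permutation p. LGALS4 had Pearson r = -0.859 (exact permutation p = 0.00342) and Spearman rho = -0.881 (exact permutation p = 0.00724). EPCAM had r = -0.874 (exact permutation p = 0.00305) and rho = -0.81 (exact permutation p = 0.0218). KRT8 had r = -0.85 (exact permutation p = 0.00474) and rho = -0.833 (exact permutation p = 0.0154). For LGALS4 the order of the arrays followed MS4A1 as well as their distances did, and for EPCAM and KRT8 somewhat less well. KRT18 had r = -0.823 (exact permutation p = 0.00804) and the tightest order, with rho = -0.929 (exact permutation p = 0.00223).

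For CDH1 and VIL1 the gap between ranks and distances was wider. CDH1 had r = -0.846 (exact permutation p = 0.00719) and rho = -0.619 (exact permutation p = 0.115). VIL1 had r = -0.797 (exact permutation p = 0.0177) and rho = -0.524 (exact permutation p = 0.197). KRT20 outside the rule resembled them, with r = -0.831 (exact permutation p = 0.00843) and rho = -0.595 (exact permutation p = 0.132). Adjusted values across the array stand with the slopes above.

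Without the 2 arrays farthest from the median of MS4A1, again Colon_CS 3 and Colon_RPS 2, r over the other 6 arrays was -0.593 for LGALS4, -0.107 for VIL1, -0.648 for EPCAM, -0.362 for CDH1, -0.483 for KRT8 and -0.641 for KRT18. The smallest exact permutation p among these 6 was 0.169. Without both arrays the slopes of LGALS4, VIL1, EPCAM, CDH1 and KRT8 shrank to -0.05, -0.02, -0.10, -0.04 and -0.06, whereas KRT18 lost its call but not its slope, at -0.20. The slope fit without both arrays called 0 of 27 members and 19 of all 43602 probes, with 4 members at an unadjusted limma p under 0.05. Leaving out Colon_CS 3 alone or Colon_RPS 2 alone also gave 0, with a median member slope of -0.23 and -0.30 and with 26 and 27 members at an unadjusted limma p under 0.05, while leaving out Colon_CS 1 gave 5 and leaving out Colon_RPS 3 gave 12. The shares of all probes that fell in these 4 fits were 0.112%, 0.167%, 1.79% and 2.94%. Within the diets, as deviations from the mean of each diet, r ran from -0.923 for CDH1 to -0.799 for KRT18, and with diet in the slope fit 22 members of 4 genes passed, against 3.85% of all probes falling.

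The size of the drop on the 2 arrays differed between genes. Colon_CS 3 lay below the median of the other 6 arrays by 1.47 log2 units for LGALS4, 2.48 for VIL1, 1.99 for EPCAM, 1.68 for CDH1, 1.62 for KRT8 and 1.11 for KRT18. Colon_RPS 2 lay below it by 1.00, 1.88, 1.35, 1.81, 1.11 and 0.60 in the same order of genes. VIL1 thus stood farthest down on both arrays and KRT18 least, and CDH1 was the one gene lower on Colon_RPS 2 than on Colon_CS 3, while its second probe had the reverse order, at 6.80 and 5.67.

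**Figure D2:**
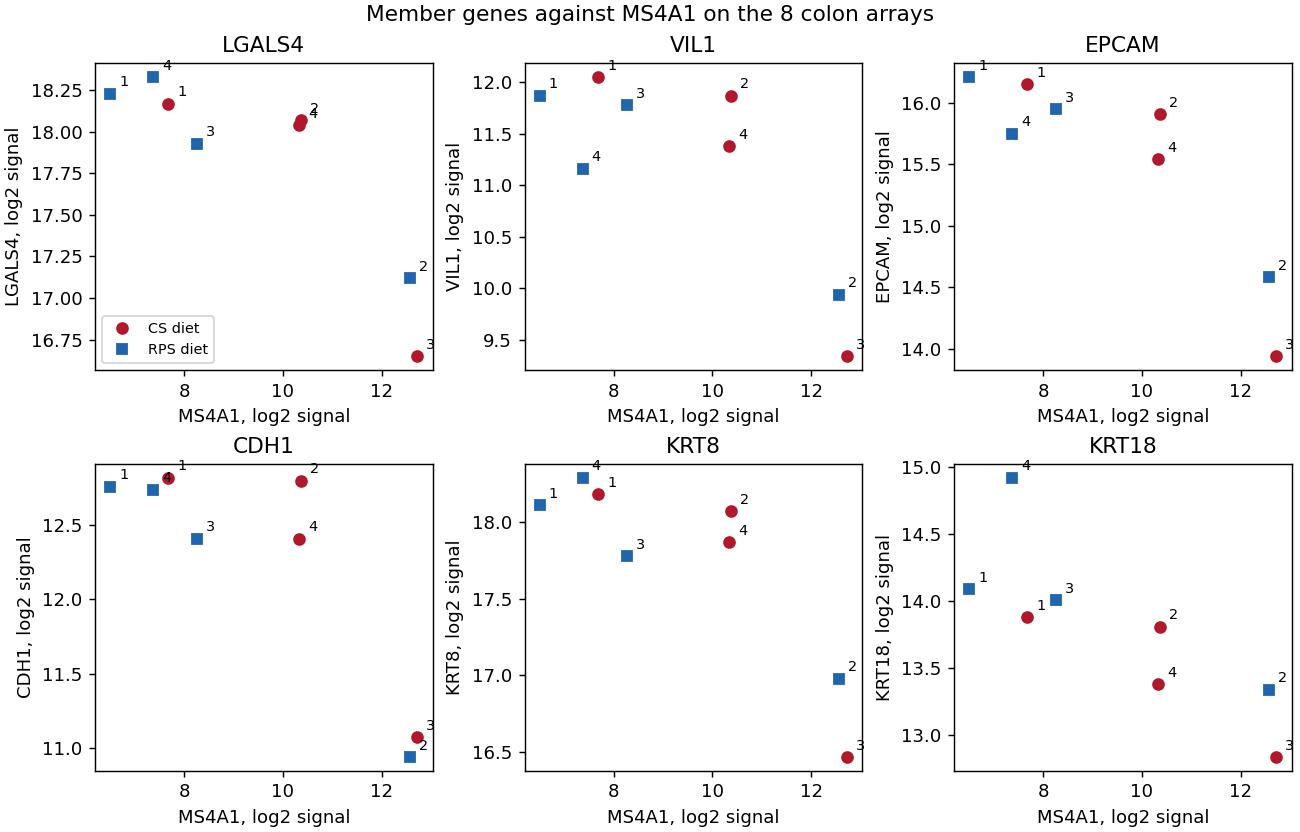
Log2 signal of the 6 member genes against the log2 signal of MS4A1 on the 8 colon arrays, normalized together; circles are the CS diet, squares the RPS diet and digits the replicates. CS replicate 3 and RPS replicate 2 lie at the lower right of each panel, with MS4A1 at 12.72 and 12.57.

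Markers of other cells moved on the same arrays. The B cell gene CD79A rose with MS4A1 by 0.82 log2 units per log2 unit, as did CXCL13, the chemokine that draws B cells into follicles, by 0.71 (limma adjusted p = 0.000866 and 0.035). In 11 other fits CD79A passed 11 times and CXCL13 5 times, with slopes of 0.62 to 0.71 for CXCL13 in the 6 fits without 1 array that ended its call. MS4A1, CD79A and CXCL13 were well above background on all 8 colon arrays. The part of B cell content in the low member signals was not tested.

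CXCL13 had log2 signals of 9.88, 13.16, 15.25 and 12.46 on the CS diet and 12.63, 15.55, 11.54 and 10.73 on the RPS diet. CD79A had 6.59, 8.62, 10.67 and 8.02 on the CS diet and 5.52, 10.07, 6.11 and 5.81 on the RPS diet. Both were highest on the 2 arrays where the members were lowest. Of 8 T cell genes, 1 rose with MS4A1 (LCK, 0.35, limma adjusted p = 0.0467; called in 4 of 11 other fits, with slopes of 0.28 to 0.37 in the 7 that missed the threshold), and the summed T cell signal, led by CD5, was 7456, 8365, 19170 and 7759 on the CS diet and 8926, 12990, 7767 and 4182 on the RPS diet.

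Of the 5 macrophage, 4 neutrophil, 4 smooth muscle, 4 endothelial and 4 enteric neuron and glia genes, 0 passed in either direction on MS4A1 (limma). At an unadjusted limma p under 0.05 there were 4 of these 21 genes. With normexp background correction 1 of the macrophage genes rose. Of 4 fibroblast genes, 1 rose: VIM, the intermediate filament gene of mesenchymal and immune cells (0.17, limma adjusted p = 0.0186). VIM lost this call under scaling to the 75th percentile (0.13, limma adjusted p = 0.057) and without Colon_CS 3 or Colon_RPS 2 (0.19 and 0.17).

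Some of the working partners of the members fell with them. E-cadherin is held to actin by catenins, and 3 of 5 adherens junction genes fell with MS4A1: JUP by 0.32, CTNND1 by 0.28 and CTNNA1 by 0.20, while CTNNB1 had a slope of -0.05 (limma adjusted p = 0.0942). All 3 measured EPCAM partners fell, namely the protease inhibitor gene SPINT1 by 0.31, the claudin gene CLDN7 by 0.30 and the tetraspanin gene CD9 by 0.24. In the brush border, where villin works, 2 of 4 genes fell, MYO5B by 0.32 and ANKS4B by 0.31, and EZR, the linker of membrane and actin, had -0.03 (limma adjusted p = 0.71).

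Of the epithelial transcription and splicing factors KLF4 fell by 0.37, HNF4A by 0.36, CDX2 by 0.33 and ESRP1 by 0.28. Of 4 other galectins 2 fell, LGALS3 by 0.30 and LGALS8 by 0.29. Of 4 other keratin and intermediate filament genes, the lamin gene LMNA fell by 0.24, VIM rose by 0.17, and KRT4 and DES stood at 0.03 each. PPL, the 1 plakin gene measured, was well above background on 0 of 8 colon arrays. The median slope of the lists of partners, galectins and other filament genes kept its sign under the other normalizations tried.

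Of the lists of epithelial cell types, 1 of 8 absorptive colonocyte genes fell (FABP1, by 0.29) with a list median of -0.34, and 0 of 3 goblet genes passed with a median of -0.23. The summed absorptive colonocyte signal, led by FABP1, was 684800, 511600, 155800 and 522500 on the CS diet and 758000, 286300, 653000 and 523300 on the RPS diet. The summed goblet signal, led by the secreted mucus gene CLCA1, was 94330, 128500, 39500 and 135100 on the CS diet and 94790, 62150, 84200 and 134800 on the RPS diet. Both sums were lowest on Colon_CS 3 and next lowest on Colon_RPS 2. Of 6 enteroendocrine genes, SCG5 rose by 0.46 and the other 5 did not pass. Of the cholangiocyte genes ANXA4 fell by 0.27 and CFTR by 0.24. Of the 8 hepatocyte genes 1 fell, SERPINA1 by 0.58, a gene that gut epithelium also makes. Without Colon_CS 3 or Colon_RPS 2 the calls of FABP1, SCG5 and SERPINA1 ended, with slopes of -0.23 and -0.30 for FABP1, 0.43 and 0.41 for SCG5 and -0.67 and -0.49 for SERPINA1. SERPINA1 also missed the threshold without Colon_RPS 1 (-0.61) and without Colon_RPS 3 (-0.56).

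The 17 other falling genes named, from JUP to CFTR, were refitted without each array. Of them 1 was called without Colon_CS 3 (ANKS4B), 0 without Colon_RPS 2, 7 without Colon_CS 1, 9 without Colon_RPS 3, 11 without Colon_RPS 4, 12 without Colon_RPS 1, 15 without Colon_CS 4 and 17 without Colon_CS 2. Of all probes 0.112% fell at an adjusted p under 0.05 without Colon_CS 3, 0.167% without Colon_RPS 2 and 1.79% to 5.93% in the other fits. In these fits all 17 had an unadjusted limma p under 0.05. Their median slope was -0.21 without Colon_CS 3 and -0.29 without Colon_RPS 2, against -0.30 with all 8 arrays. As the 17 were named for passing with all 8 arrays, these refits are no separate support. Each refit kept at least 1 of the 2 low arrays, and the 17 were not refitted without both.

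**Figure D3:**
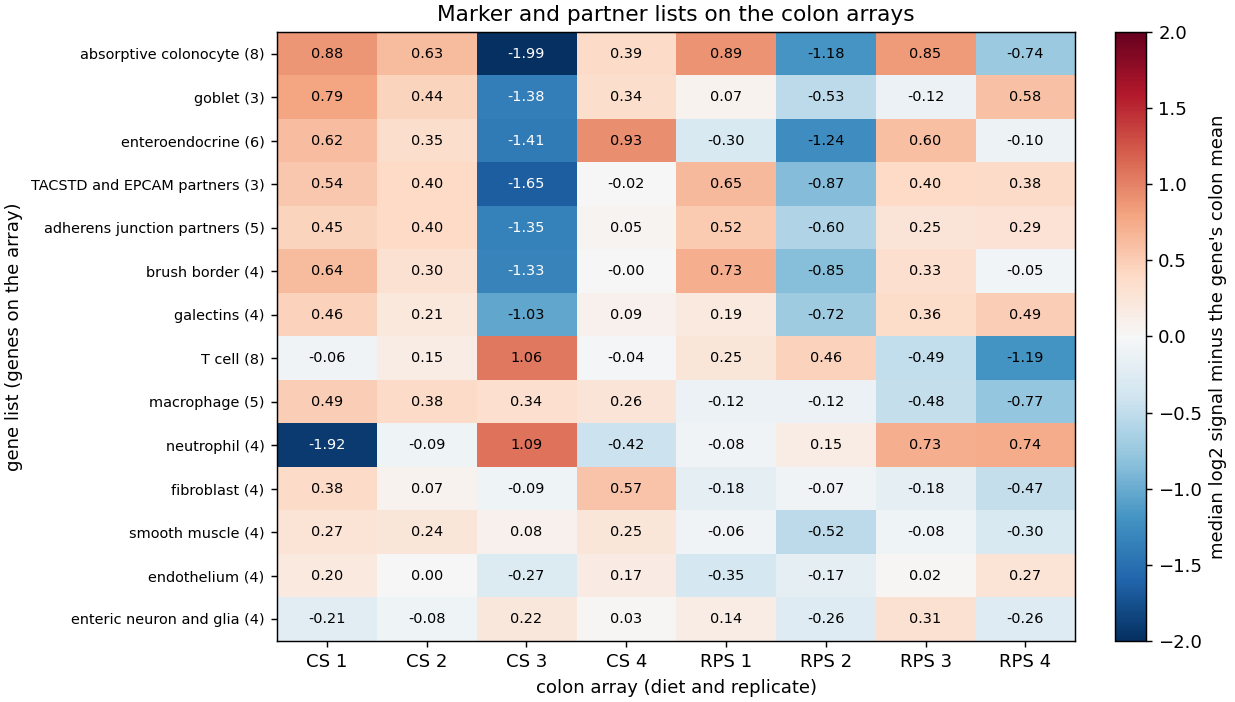
Median log2 signal of each gene list on the 8 colon arrays, minus each gene's mean over them, with the number of genes measured in brackets. The upper 7 lists, from absorptive colonocyte to galectins, are lowest on CS replicate 3, and the T cell list is highest on CS replicate 3 and RPS replicate 2, at 1.06 and 0.46.

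The members also moved with each other. Over the 8 colon arrays, the same 2 low ones included, Pearson r between genes ran from 0.603 for VIL1 and KRT18 to 0.995 for LGALS4 and KRT8. These r values are a description. KRT18 was the least alike, with r between 0.603 and 0.81 to the other 5 genes. Among 10154 probes with a symbol and well above background on all 8 arrays, 5 genes were named as most like the members' mean. They were FAM177A1 (r = 0.998), LGALS3 at probe A_72_P211702 (r = 0.997), MAL2 (r = 0.996), PBX3 (r = 0.995) and MYO6 (r = 0.995). Their probes held ranks 1, 2, 3, 6 and 7. MAL2 had log2 signals of 13.21, 13.09, 11.07 and 12.69 on the CS diet and 13.35, 11.62, 12.89 and 13.39 on the RPS diet, again low on the same 2 arrays.

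The third comparison set colonic mucosa against liver over all 16 arrays. LGALS4, EPCAM, VIL1, KRT8 and KRT18 were higher in colon, and CDH1 was not called. Of the 27 member probes 25 were higher in colon (limma adjusted p under 0.05), against 28.9% of all probes, and 0 were lower, against 24% of all probes. The median log2 difference, colon minus liver, was 7.56 over the members and 0.01 over all probes. As 18 of the 27 are EPCAM probes, this median and the count of 25 mainly reflect EPCAM. The genes differed widely at their brightest probes, as given below.

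LGALS4 had the largest gap of the 6 genes at their brightest probes. On the CS and RPS diets its mean log2 signals were 17.78 ± 0.75 and 17.94 ± 0.59 in colon and 8.38 ± 0.27 and 7.98 ± 0.27 in liver (SD, n = 4). The colon groups did not differ beyond their spread, and every colon array lay above every liver array. The difference was 9.68 (SE 0.25), a fold of 822 (limma adjusted p = 2.37e-13). The second LGALS4 probe was higher in colon too, and as 1 of 8 liver arrays was well above background its difference is not given.

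EPCAM stood at 15.42 ± 0.99 and 15.66 ± 0.70 in colon and at 8.38 ± 0.47 and 7.64 ± 1.04 in liver, again with no overlap of tissues. It was 185-fold higher in colon, a log2 difference of 7.53 (SE 0.39, limma adjusted p = 9.06e-10), and its 18 probes ranged from 7.42 to 7.85. Within each tissue the order of the diets did not exceed the spread.

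VIL1 stood at 11.03 ± 1.29 and 11.05 ± 0.92 in colon and at 7.59 ± 1.29 and 6.65 ± 0.56 in liver. The tissues did not overlap, although the lowest colon array, Colon_CS 3 at 9.15, lay only just above the highest liver array, Liver_CS 4 at 8.80. The fold was 15.1, a log2 difference of 3.92 (SE 0.50, limma adjusted p = 1.15e-05). Over the alternatives tried, the VIL1 difference ran from 3.22 to 4.48.

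KRT8 stood at 17.69 ± 0.82 and 17.83 ± 0.62 in colon and at 14.27 ± 0.32 and 14.56 ± 0.36 in liver, a fold of 10.2 (log2 difference 3.34, SE 0.27, limma adjusted p = 1.06e-07). Its partner KRT18 stood at 13.49 ± 0.51 and 14.12 ± 0.67 in colon and at 12.81 ± 0.25 and 13.28 ± 0.34 in liver. KRT8 separated the tissues completely, with other probes at 3.23 and 3.26, whereas KRT18 on Colon_CS 3, Colon_CS 4 and Colon_RPS 2 lay among the liver values. KRT18 was 1.70-fold higher in colon (log2 difference 0.77, SE 0.23, limma adjusted p = 0.0107), and under scaling to the 75th percentile the difference was 0.37 with a limma adjusted p of 0.229, which ended the call.

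CDH1 stood at 12.21 ± 0.88 and 12.15 ± 0.92 in colon and at 12.12 ± 0.28 and 11.36 ± 0.32 in liver, so 3 of its 4 groups lay within their spread of each other. The tissues overlapped, since Colon_CS 3 at 10.93 and Colon_RPS 2 at 10.79 were lower than every liver array. The difference was 0.44 (95% confidence interval -0.25 to 1.12, limma adjusted p = 0.274), and the second probe gave 0.25 (limma adjusted p = 0.536). Without both arrays CDH1 differed by 0.89 (limma adjusted p = 0.00025) and all 27 member probes passed, and without Colon_RPS 2 alone it differed by 0.66 (limma adjusted p = 0.0446).

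KRT20, outside the rule, had a mean log2 signal of 14.71 over the colon arrays and was well above background on 0 of 8 liver arrays. Against the lowest signal that counted as well above background on each liver array, it was at least 2566-fold higher in colon (limma adjusted p = 2.24e-14).

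The partners of the members were also compared between the tissues. The 3 EPCAM partners were all higher in colon, with CLDN7 at 5.84, CD9 at 4.16 and SPINT1 at 3.01 on the log2 scale. Of the 5 adherens junction genes 4 were higher, JUP by 1.85, CTNND1 by 1.61, CTNNA1 by 1.19 and CTNNB1 by 0.19, and of 4 brush border genes 3 were, EZR by 3.16, MYO5B by 1.10 and SLC9A3R1 by 0.84. Under scaling to the 75th percentile the counts of these lists were 3, 3 and 2. Of the transcription and splicing factors KLF4 was higher in colon by 6.64. ESRP1 was higher too, but not well above background on Liver_RPS 3, so its difference is not given, and CDX2 and KLF5 were well above background on 0 of 8 liver arrays. HNF4A, which hepatocytes use as well, was lower in colon by -1.79.

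Of the other galectins LGALS3, LGALS1 and LGALS9 were higher in colon by 8.46, 2.38 and 1.49 and LGALS8 was lower by -0.84, a call that ended with normexp background correction (-0.71, limma adjusted p = 0.0594). Of 4 other keratin and intermediate filament genes, LMNA and VIM were higher by 2.06 and 1.77 and KRT4 and DES lower by -0.91 and -0.48. PPL was well above background on 1 of 8 liver and 0 of 8 colon arrays, so its difference is not given. Among the immune and stromal lists 8 of 8 T cell and 4 of 4 fibroblast genes were higher in colon, and 3 of 5 macrophage, 4 of 4 neutrophil and 2 of 4 enteric neuron and glia genes were lower. Endothelial genes were split 1 higher and 3 lower, smooth muscle genes 2 and 1, and 4 of 6 enteroendocrine genes were higher.

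The diet was also read in liver, where hepatocytes carry the keratins and E-cadherin and bile duct cells carry EPCAM. Of the 27 member probes 2 passed both thresholds, 1 of CDH1 and 1 of EPCAM, against 3.56% of all probes, and both were lower on the RPS diet. After adjustment 0 members passed (limma), against 0.00229% of all probes, and 3 members had an unadjusted p under 0.05, against 7.59% of all probes. The median log2 difference was -0.67 over the members, most of them EPCAM probes, and -0.00 over all probes. Over the members it was -0.15 without Liver_RPS 3, -0.45 without Liver_CS 3 and -0.31 with normexp background correction.

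CDH1 had log2 signals of 12.32, 11.79, 11.78 and 12.28 on the CS diet and 11.12, 10.83, 11.55 and 11.46 on the RPS diet. Every array on the RPS diet lay below every array on the CS diet. The difference was -0.80 (95% confidence interval -1.29 to -0.31, a fold of 1.74), with an unadjusted limma p of 0.00606, an adjusted p of 0.442 and the smallest exact two-sided permutation p that 4 against 4 allow, 0.0286. The second CDH1 probe overlapped between diets and differed by -0.46 (exact permutation p = 0.143). Each of the 8 fits without 1 liver array kept the first CDH1 probe past both thresholds.

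EPCAM had log2 signals of 7.86, 8.17, 8.86 and 7.81 on the CS diet and 7.91, 7.94, 5.83 and 8.02 on the RPS diet. A single array, Liver_RPS 3, lay far below the rest, and the other 3 on the RPS diet lay among those of the CS diet. All 18 EPCAM probes were lowest on Liver_RPS 3 and highest on Liver_CS 3, against 18.03% and 14.6% of all probes, and 0 of the 9 other member probes were lowest on Liver_RPS 3. The 18 probes differed by -1.04 to -0.44 (median -0.71), and without Liver_RPS 3 their median was -0.16, from -0.51 to 0.21.

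EPCAM probe A_72_P124201 was the one past both thresholds, with 7.13, 7.44, 7.77 and 7.29 on the CS diet and 6.89, 6.93, 5.48 and 6.87 on the RPS diet. Its groups did not overlap, as for 2 of 27 member probes in all and 4.45% of all probes. The difference was -0.87, with an unadjusted limma p of 0.0398, an adjusted p of 0.626 and an exact permutation p of 0.0286. Without Liver_CS 2, Liver_CS 3 or Liver_CS 4 it differed by -0.86, -0.74 and -0.91 and missed the p threshold, and without Liver_RPS 3 it differed by -0.51 and missed the fold threshold alone.

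**Figure D4:**
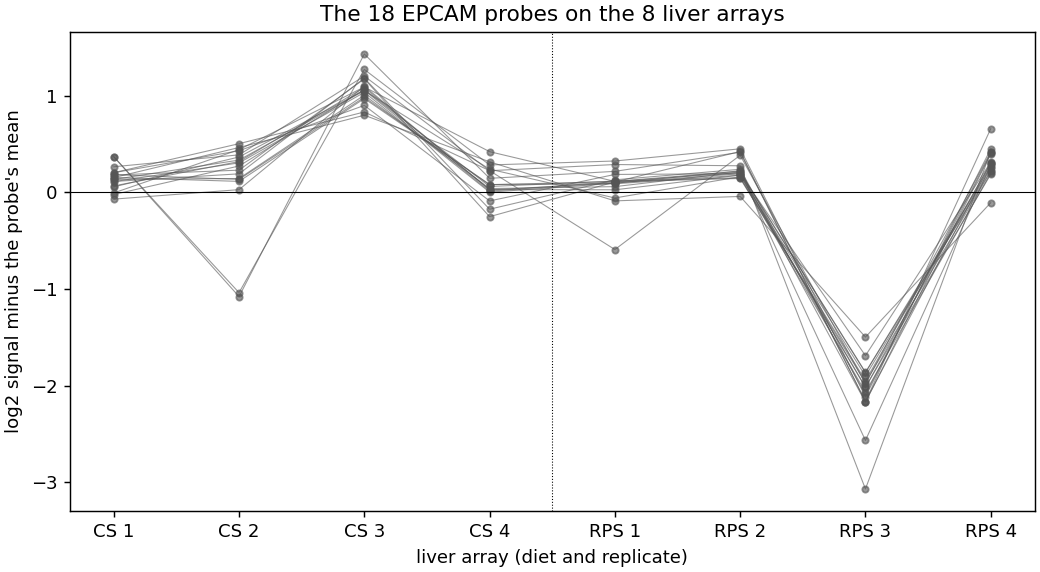
Log2 signal of the 18 EPCAM probes on the 8 liver arrays, each minus the mean of that probe; lines join the values of 1 probe, and the dotted line divides the diets. All 18 are lowest on RPS replicate 3 and highest on CS replicate 3.

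Other bile duct genes were read beside EPCAM in liver. SOX9, a factor of bile duct cells, was past both thresholds and lower on the RPS diet. It was not well above background on Liver_RPS 3, and without that array it differed by -0.67, past both thresholds. In 11 other fits SOX9 passed 6 times. Without any 1 of the CS arrays it missed the p threshold alone, whereas normexp background correction shrank the difference to -0.17. ANXA4 differed by -0.20 and was not called. Like EPCAM, ANXA4 was lowest on Liver_RPS 3 and highest on Liver_CS 3, whereas SPP1, lowest on Liver_RPS 3 at 7.73, was highest on Liver_CS 2 at 8.85 and second lowest on Liver_CS 3 at 7.99. Lists of other cells were low on Liver_RPS 3 as well. Medians of the fibroblast, smooth muscle, endothelial, goblet, hepatocyte and other keratin and filament lists were lowest there among the liver arrays. In the goblet list MUC2 and CLCA1 were not well above background on that array. VIM at 10.41, DCN at 9.37, COL1A2 at 8.84 and CNN1 at 7.32 had their lowest liver value there. Not every gene of these lists did, as ACTA2 was lowest on Liver_CS 3 (11.88) and DES on Liver_RPS 4 (11.79). Whether the bile duct content of the samples had a part in the EPCAM values was not tested.

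SOX9 had log2 signals of 4.44, 4.43, 4.71 and 4.64 on the CS diet and 3.75, 3.97, 2.04 and 3.93 on the RPS diet, with the 2.04 near the floor. Every RPS value lay below every CS value.

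The liver keratins had differences above 0, none of them called. KRT18 had log2 signals of 12.93, 12.99, 12.40 and 12.79 on the CS diet and 13.41, 13.51, 13.43 and 12.73 on the RPS diet. KRT8 had 14.61, 14.58, 13.90 and 14.19 on the CS diet and 14.52, 14.72, 15.06 and 14.19 on the RPS diet. For KRT18, 3 of the 4 arrays on the RPS diet lay above every CS array and Liver_RPS 4 lay among them, while KRT8 overlapped. KRT18 differed by 0.49, a fold of 1.41 that is under the threshold (unadjusted limma p = 0.0492, adjusted p = 0.658, exact permutation p = 0.114). Without Liver_RPS 4 it differed by 0.67 with an unadjusted limma p of 0.00424, past both thresholds. KRT8 differed by 0.30 (95% confidence interval -0.24 to 0.85, limma adjusted p = 0.835).

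LGALS4 had log2 signals of 7.82, 8.17, 8.50 and 8.22 on the CS diet and 7.48, 7.69, 8.15 and 7.74 on the RPS diet. VIL1 had 8.41, 6.08, 6.39 and 8.61 on the CS diet and 5.81, 7.15, 6.17 and 6.52 on the RPS diet. LGALS4 overlapped through Liver_RPS 3 alone among the RPS arrays, and VIL1 was high on Liver_CS 1 and Liver_CS 4 and low on the other pair of the CS diet. LGALS4 differed by -0.41 (95% confidence interval -0.85 to 0.03, limma adjusted p = 0.68) and VIL1 by -0.96 (-2.48 to 0.56, limma adjusted p = 0.802).

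Other genes of the lists called for diet in liver were FABP1 and GUCA2B, higher by 0.64 and 0.65, CA1, lower, and SOX10, higher. CA1 was well above background on 6 liver arrays and SOX10 on 6, and PPL, also past the thresholds, on 1, so no differences are given for these. In 11 other fits FABP1 passed 9 times, GUCA2B 2 times, CA1 4 times and SOX10 6 times, and with normexp background correction FABP1 alone of these passed. In the fits without 1 array that ended its call GUCA2B was higher by 0.44 to 0.75, and with normexp it was higher by 0.24. Without Liver_CS 3 and without Liver_RPS 1 FABP1 was higher by 0.48 and 0.54, under the threshold. Of the brush border, adherens junction, galectin, EPCAM partner and other keratin genes 0 passed in liver, and so did 0 of the goblet, enteroendocrine, T cell, macrophage, neutrophil, fibroblast, smooth muscle, endothelial and hepatocyte genes.

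Whether diet acted differently in the 2 tissues was tested by the interaction. Of the 27 member probes 0 passed (limma adjusted p under 0.05), against 0.00229% of all probes, and 0 members and 2059 of all probes had an unadjusted p under 0.05. The median interaction was 0.96 over the members, most of them EPCAM probes, and 0.01 over all probes. Over the members it was 0.42 without Liver_RPS 3, 0.44 without Colon_CS 3 and 0.60 with normexp background correction. For CDH1, lower on the RPS diet in liver and level in colon, the interaction was 0.69 (95% confidence interval -0.67 to 2.06, limma adjusted p = 0.999). For EPCAM it was 0.98 (-0.71 to 2.66) and for KRT18, with the same sign in both tissues, 0.17 (-0.80 to 1.14).

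Probe sequences are printed as the array's annotation gives them, and none was placed on a transcript. Probes whose values the results single out are given in full, 5′ to 3′: the EPCAM probe past both thresholds in liver, the CDH1 probe that did not follow the first one, the KRT8 probe that missed the threshold on MS4A1, and the MS4A1 probe used as the measure of B cells.
EPCAM A_72_P124201: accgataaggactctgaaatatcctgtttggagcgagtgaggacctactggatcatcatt
CDH1 A_72_P331483: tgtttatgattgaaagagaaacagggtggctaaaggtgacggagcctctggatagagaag
KRT8 A_72_P632350: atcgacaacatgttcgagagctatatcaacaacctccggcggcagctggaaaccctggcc
MS4A1 A_72_P240222: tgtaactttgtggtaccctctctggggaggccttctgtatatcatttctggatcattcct

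The 18 EPCAM probes are not 18 separate readings of the gene. Of them 13 shared a run of at least 20 bases with another EPCAM probe, in 3 linked groups, and 5 shared none, the probe A_72_P124201 among them. Over the 8 colon arrays r between pairs of EPCAM probes ran from 0.884 to 0.999, and over the 8 liver arrays from 0.73 to 1.00. Stretches of 30 bases of 3 probes show 1 such overlap, with the 28-base run that the 3 have in common, or its first 27 bases where the stretch ends, in capitals.
A_72_P756697: aatGACTACTGTCTTACCCATTTGTGATTA
A_72_P764764: aatGACTACTGTCTTACCCATTTGTGATTA
A_72_P739864: GACTACTGTCTTACCCATTTGTGATTAAat
Their colon minus liver differences were 7.53, 7.56 and 7.50, and their slopes on MS4A1 were -0.30, -0.31 and -0.32.

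EPCAM probes A_72_P722088 and A_72_P737465 overlap over 55 bases with 2 differences, A35G and G43A, counted from 1 at the 5′ end of A_72_P722088, whose base comes first. The differing bases are in capitals in stretches of 30 bases.
A_72_P722088: actaatgtgtggAgcaaagaGagatctttg
A_72_P737465: actaatgtgtggGgcaaagaAagatctttg
These probes differed between colon and liver by 7.63 and 7.65 and between diets in liver by -0.75 and -0.69, so they read alike.

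KRT8 and KRT18 belong to 1 family. Runs shared between genes were sought among the probes brightest in colon, 1 per gene, for the 6 genes, KRT20 and MS4A1. The longest was 11 bases, between KRT8 A_72_P402733 and KRT18 A_72_P153681. The other probes were not compared between genes. This run of 11 bases is in capitals.
KRT8 A_72_P402733: tgggaagcTGGTGTCTGAGtcctctgatgt
KRT18 A_72_P153681: agTGGTGTCTGAGacctcagacaccaaagt
The pair behaved differently, with colon minus liver differences of 3.34 and 0.77. The last 30 bases of the LGALS4 probe A_72_P035516 hold AATAAA, the letters of the polyadenylation motif, at 2 places, in capitals, on the printed strand.
LGALS4 A_72_P035516: ctaagcctctAATAAAattAATAAActgcc
Of all 43603 probes 9.60% held AATAAA, and of the member probes 1 did. A match is a description of the probe and not a measured site.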

How the data were processed

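RNA of colonic mucosa and liver was hybridised to 16 Agilent porcine arrays in 1 colour, 1 array per pig and tissue. Per the file headers, the processed signal is an intensity that Agilent Feature Extraction 10.7, the version in the submitters' processing notes, corrected for background within each array. The authors also deposited a log2 table with a median of 5.34 in each column, which correlated with the quantile normalized scanner values at r = 1.00 per array, so its scale is log2 and quantile normalized over 16 arrays.

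Here log2 processed signals of non-control spots were quantile normalized over the arrays of each fit, with spots marked as non-uniform or as population outliers set to missing, and spots of a probe averaged. limma 3.58.1 in R 4.3.3 fitted each contrast and the slope on MS4A1 over all probes, with Benjamini-Hochberg adjustment. Thresholds were p under 0.05 with a fold above 1.5 for diet, as in the study, and an adjusted p under 0.05 otherwise. Correlations and single probes were tested by exact permutation over arrays. The R package data.table in version 1.17.8, Python 3.11.15, pandas 2.3.3 and matplotlib 3.10.9 handled tables and plots. The steps were tested on simulated data.

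Named genes were all 9 members and, per list, at most 4 genes, those past the threshold first and then the largest differences, with the 5 genes most like the members' mean. Genes named outside that rule were chosen after their values were seen. Lists used the gene symbols of the files, updated through the RefSeq table of Sscrofa11.1, which matched 12736 of 43603 probes; the table served for names only. The members and lists were chosen with earlier results of these data known. Lists covered brush border, adherens junction, desmosome and plakin, keratins and other intermediate filaments, transcription and splicing factors, galectins, EPCAM partners, and markers of absorptive colonocytes, goblet, enteroendocrine, B and plasma, T, macrophage, neutrophil, fibroblast, smooth muscle, endothelial, enteric neuron and glia, hepatocyte and cholangiocyte cells. Of these lists 3 genes, and the list counts and the 1 alternative that use them, are not reported here. The p-values measure the spread between arrays, which within a tissue are of different pigs, and the number of arrays limits the precision. Alternatives tried were other background correction, scaling and normalization, the authors' table, outlier spots kept, a filter on dim probes, an intensity trend, a stricter fold, the methods' test, blocks for replicate number and slide, the mean of a gene's probes, diet in the slope fit, and each array left out.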

Additional observations from a re-analysis of the deposited data

Results flagged for a closer look

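Each of 28 groups of 4 arrays, for 6 genes and MS4A1, was screened for 1 array whose gap to its nearest neighbour took up more of the group's range than Dixon's 95% critical value, and 3 groups had one; chance gives about 1 in 20. LGALS4 on Colon_CS 3 was 16.65 against 18.04 for the next lowest array, a gap of 0.915 of the range. EPCAM on Liver_RPS 3 was 5.83 against 7.91, a gap of 0.95 of the range. KRT18 on Liver_RPS 4 was 12.73 against 13.41, a gap of 0.869 of the range.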

How the results depend on the processing

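For diet in liver, 2 member probes passed both thresholds, and 1 did with normexp background correction, 0 with a fold above 2, 1 by the methods' test, 1 with the replicate number as a block, and 1 to 3 with 1 array left out. For diet in colon 0 passed under each alternative, and 0 to 1 with 1 array left out. On MS4A1, 25 passed, 27 under scaling to the 75th percentile, normexp and the filter on dim probes, 0 without both low arrays and 0 to 26 with 1 array left out. Colon minus liver gave 24 to 27 members and the interaction 0 in all fits. Leaving out both low arrays, adding MS4A1 to the diet fit, and refits of called list genes were chosen after seeing the data.

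The sign of the small diet differences in colon turned for CDH1 under scaling to the 75th percentile (0.000974), normexp (0.0118) and the mean of its probes (0.24), for VIL1 without both arrays (-0.17), and, with MS4A1 in the fit, for LGALS4 (-0.20), VIL1 (-0.59), EPCAM (-0.27) and KRT8 (-0.26). With 1 array left out LGALS4 ranged from -0.20 to 0.43, VIL1 from -0.59 to 0.44, EPCAM from -0.24 to 0.58, CDH1 from -0.47 to 0.36, KRT8 from -0.25 to 0.41 and KRT18 from 0.33 to 0.86. Colon minus liver ranged from 0.34 to 0.66 for CDH1. Slopes on MS4A1 ranged from -0.25 to -0.16 for LGALS4, -0.39 to -0.24 for VIL1, -0.33 to -0.22 for EPCAM, -0.32 to -0.22 for CDH1, -0.27 to -0.17 for KRT8 and -0.25 to -0.17 for KRT18. The cause was not tested.

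Equal replicate numbers did not pair the diets: same-numbered arrays correlated in deviation from group means at 0.542, -0.384, -0.515 and 0.103 in colon and at 0.0873, 0.102, -0.153 and -0.0568 in liver. Between colon and liver 4 of 4 CS arrays correlated best with their own number (0.159 to 0.334) and 0 of 4 RPS arrays did. CS numbers may thus mark shared pigs; the tissues were fitted as unpaired. As a random block, the replicate number within a diet had a correlation of 0.0792, with 25 members called for tissue. The slide had one of -0.0462, again with 25 members called. That fit held tissue without diet, and slide and diet are 1 term within a tissue, so it cannot size a slide effect. Signal over background limits the second LGALS4 probe and KRT20 in liver, where low values have no sure order.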
